A study of Drosophila melanogaster with 22 samples.

Results

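Cyclin C (CycC) was depleted from Drosophila S2 cells with double-stranded RNA (dsRNA), and the 4 arrays of that treatment were set against the 8 control arrays of the same study. The 12 arrays were chosen by their titles, which name the dsRNA, out of 22 arrays in 6 groups. The study asked what the loss of each subunit of the Cdk8 module does to gene expression. Its other groups received dsRNA against Cdk8 (2 arrays), Med12 (4 arrays) and Med13 (4 arrays). They enter below where CycC was compared with them directly, and there in part by their own differences from controls.

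All 6 groups were wild-type S2 cells given 20 µg of dsRNA in 1 ml of medium and lysed after 72 h, so the controls carried foreign dsRNA as well. As controls, 4 arrays received dsRNA for GFP and 4 received dsRNA for luciferase (Luc), both reporter genes that flies lack. S2 is a single cultured line, derived from Drosophila embryos, with features of the macrophage-like blood cell, the plasmatocyte. The 9 haemocyte markers examined, among them srp, Pxn, Hml and eater, were all over the floor described below on all 12 arrays. Whether replicate arrays stem from separate cultures is not stated in the labels, so the p-values reflect only the spread among these samples, and that spread may be technical.

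Mediator is the coactivator complex that links transcription factors to RNA polymerase II. Its Cdk8 module, formed by Cyclin C, the kinase Cdk8 that it activates, Med12 and Med13, binds the complex reversibly and can block or aid transcription. Cyclin C is needed for the kinase activity, while Med13 ties the module to core Mediator and Med12 activates the kinase. In flies Med12 is encoded by kto and Med13 by skd.

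The arrays gave 1 intensity per probe set, and 5961 genes with a log2 intensity of 4 or more, the floor, on at least 2 arrays were tested with limma. Between 7175 and 7214 probe sets per array reached that level. The lowest correlation between 2 CycC arrays was 0.997. The first principal component of the 12 arrays held 50.1% of the variance, with CycC arrays between 9.89 and 10.7 and controls between -6.68 and -4.30. The second held 13.1% and ran mainly among the Luc arrays, from -5.23 for Luc 1 to 8.19 for Luc 2. Between GFP and Luc arrays 331 of 5961 genes had an unadjusted p below 0.05 by limma, where chance gives about 298. At an adjusted p below 0.05 they differed in 2 genes (0.0336%), 1 in each direction (0.0168%), ATPsyndelta and mRpS25. That count was 10 without Luc 4.

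The targeted transcript came down close to the floor. CycC stood at 4.25, 4.25, 4.83 and 4.22 on the 4 CycC arrays in log2 intensity, and at 9.14 to 9.30 (median 9.20) on the controls. The CycC 3 array, at 4.83, was the highest of the 4 and still far below every control. The transcript fell by 4.81 ± 0.08 on the log2 scale (standard error, SE), to 3.56% of the control level (adjusted p = 1.72e-20, limma). The transcripts of the other module subunits did not pass the threshold, with log2 differences of -0.07 ± 0.04 for Cdk8, 0.08 ± 0.06 for kto and -0.02 ± 0.05 for skd. Of the 8 nearest genes in gene order, 6 were tested, and Rrp6, a subunit of the nuclear exosome, was the one past the threshold, with a difference of 0.10 ± 0.03 (adjusted p = 0.0369). That call was lost without CycC 1, CycC 2, CycC 4, GFP 2, GFP 3, GFP 4 or Luc 1 (adjusted p from 0.0503 to 0.124). The 5 others differed by between -0.03 and 0.07.

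Cyclin C depletion moved many transcripts by small amounts and a few by large ones. Of the 5961 genes, 1445 passed an adjusted p of 0.05 (24.2%), 797 higher (13.4%) and 648 lower (10.9%) than in controls. The median size among them was 0.21 on the log2 scale, with the middle of the distribution between 0.15 and 0.33. Changes of 1.5-fold or more were seen in 99 genes, of which 33 rose and 66 fell, and changes of 2-fold or more in 29 genes, of which 14 rose and 15 fell. Small changes leaned upwards in number, and falls outnumbered rises among those past 1.5-fold. The upward lean was smaller with arrays centred on their median (791 higher, 747 lower) and without CycC 3 (586 and 555). After quantile normalization 823 were higher and 701 lower. The median over all genes was 0.01. Against GFP alone 1064 genes passed (17.8%), 572 higher (9.6%) and 492 lower (8.25%). Against Luc alone 1182 passed (19.8%), 659 higher (11.1%) and 523 lower (8.77%).

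In 853 genes (14.3%) the CycC and control arrays did not overlap, with all 4 CycC arrays above all 8 controls in 458 (7.68%) and below them in 395 (6.63%). Of the 1445 called genes, 635 had overlapping groups. The share of genes called rose with the level of the gene, from 21.1% in the lowest of 4 bins by mean level to 29.9% in the highest. Their median size went the other way, from 0.35 in the lowest bin to 0.17 in the highest. Of 84 other probe sets of called genes, 76 had the direction of the set used here. Because arrays were normalized to one another, a uniform shift of all transcripts could not be seen.

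**Figure D1:**
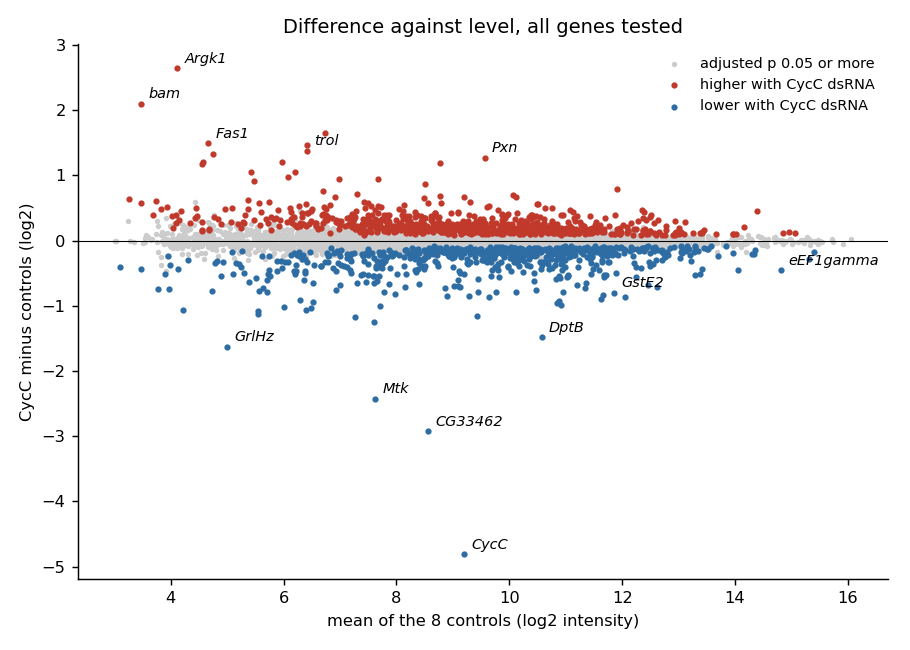
Each point is 1 of 5961 genes, with its mean log2 intensity over the 8 controls on the x axis and the CycC minus control difference in log2 units on the y axis. Red points rose (797), blue points fell (648) and grey points did not pass, and CycC itself lies far below the rest at -4.81.

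The 15 largest rises without overlap were led by Argk1, bam, CG12493, Fas1 and Cyp4ac1, and 7 of the 15 were genes known by a CG number alone. Argk1 encodes arginine kinase, which stores high-energy phosphate in invertebrate cells. It stood at 7.22, 6.92, 6.52 and 6.38 on the CycC arrays against 3.67 to 4.69 (median 4.10) on the controls, and 3 of the 8 controls were below the floor. The groups were far apart, and Argk1 rose 6.24-fold (log2 2.64 ± 0.16, adjusted p = 1.65e-10). The germline differentiation factor gene bam read 5.89, 5.20, 5.60 and 5.63 with CycC dsRNA and 3.23 to 3.81 (median 3.46) in controls. Since all 8 controls lay below the floor, bam rose at least 2.99-fold (fitted log2 2.10 ± 0.11, adjusted p = 2.63e-11).

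Fas1, which encodes the membrane adhesion protein fasciclin 1, read 6.10, 6.27, 6.07 and 6.19 against 4.44 to 4.92 (median 4.66). No CycC array of Fas1 came near a control, and the rise was 2.82-fold (log2 1.497 ± 0.10). The matrix proteoglycan gene trol, which encodes perlecan, read 7.76, 7.67, 7.84 and 7.89 against 6.18 to 6.58 (median 6.43) and rose 2.6-fold (log2 1.38 ± 0.08). Of its 3 other probe sets, a pair differed by 1.25 ± 0.09 and 1.06 ± 0.10, while the third, at the floor, differed by 0.02. Pxn, which encodes peroxidasin, the enzyme that crosslinks collagen IV, read 10.84, 10.68, 10.90 and 10.93 against 9.26 to 9.92 (median 9.64) and rose 2.41-fold (log2 1.27 ± 0.07). In Pxn the GFP controls stood above the Luc controls, with means of 9.75 and 9.38, and all CycC arrays were higher than both.

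The cytochrome P450 gene Cyp4ac1 rose 2.76-fold, from controls at 6.34 to 6.60 (median 6.40) to 7.87, 7.72, 8.01 and 7.94. Among genes without a described product, CG12493 rose 3.15-fold (log2 1.65 ± 0.09), and its CycC arrays, at 8.42, 8.41, 8.34 and 8.35, were nearly level with each other. CG15482 (1.33 ± 0.09), CG8501 (1.20 ± 0.07), CG4570 (1.20 ± 0.10), CG14857 (1.20 ± 0.15), CG10939 (1.18 ± 0.11) and CG5080 (0.97 ± 0.10) followed on the log2 scale. M7BP, named as a binding protein of myosin 7a, rose by 1.05 ± 0.11. The 15 largest rises were completed by aub, which encodes a PIWI protein of the piRNA pathway, at 6.62, 6.18, 6.44 and 6.67 against 5.31 to 5.53 (median 5.44) (log2 1.05 ± 0.08). All 15 were chosen as groups without overlap.

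The germline list held 13 genes on the array, of which 8 were over the floor and were measured. Of the 8, 50% were called, against 24.2% of all genes. Of these, bam, aub, ovo and piwi rose and mael, AGO3, tud and zpg did not pass, with values between 0.04 and 0.11, though zpg passed without CycC 2 or Luc 4 (adjusted p from 0.0212 to 0.0407). The transcription factor gene ovo rose by 0.36 ± 0.09. The call of piwi (0.26 ± 0.09, adjusted p = 0.036) was lost without CycC 1, CycC 3, GFP 1, GFP 3 or Luc 2 (adjusted p from 0.052 to 0.21). The summed intensity of the list ran from 2197 to 2595 on the controls and from 2542 to 2723 on the CycC arrays, and what part other cells could have in it was not tested. Of the neuron markers on the array 1 of 10 was over the floor, of the muscle markers 0 of 9 and of the fat body markers 1 of 8. None of those measured passed the threshold, and in a bulk sample fewer cells of a type and less RNA per cell cannot be told apart.

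The largest falls after CycC itself were in an uncharacterised gene and in genes of the humoral immune response. CG33462 read 5.88, 5.10, 6.00 and 5.56 on the CycC arrays and 8.34 to 8.73 (median 8.56) on the controls. Its groups lay more than 2 log2 units apart, and it fell 7.59-fold (log2 -2.92 ± 0.11, adjusted p = 1.65e-13). GrlHz read 3.35, 3.36, 3.75 and 3.04 against 4.49 to 5.48 (median 4.96), and as all 4 CycC arrays were below the floor it fell at least 2.01-fold (fitted log2 -1.63 ± 0.20). The glycosyltransferase gene Ugt37D1 was also below the floor on all CycC arrays and on 3 of 8 controls, which allows a fall of at least 1.16-fold (fitted log2 -1.06 ± 0.18).

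Further falls of about 2-fold came in CG31445 (-1.25 ± 0.09), gas (-1.16 ± 0.12), CG4793 (-1.16 ± 0.07), CG34417 (-1.12 ± 0.11), CG10359 (-1.06 ± 0.07), CG34232 (-1.04 ± 0.10) and CG44014 (-1.001 ± 0.18). The gene named for a juvenile hormone binding protein, Jhbp1, fell by 1.07 ± 0.15. For CG4793, which was the brightest of these, the arrays read 8.42, 8.21, 8.17 and 8.25 against 9.22 to 9.58 (median 9.46). The CycC arrays of gas were the most spread, at 5.99, 5.56, 6.65 and 6.19, against controls at 7.01 to 7.53 (median 7.25). Like the rises, the 15 largest falls were chosen as groups without overlap. The second probe set of CG44014 differed by -0.98.

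**Figure D2:**
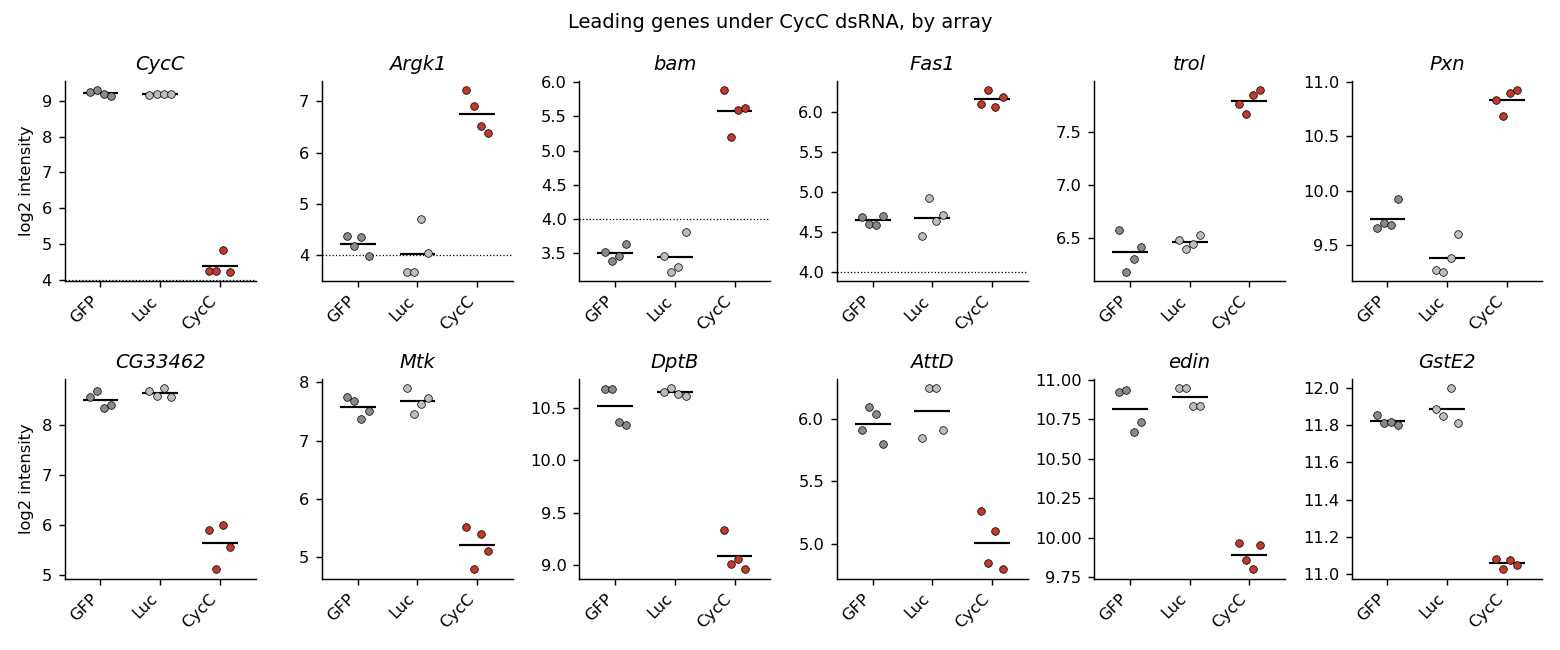
Each panel plots the log2 intensity of 1 gene on the 4 GFP, 4 Luc and 4 CycC arrays, with points for arrays, lines for group means and a dotted line at the floor of 4 where it falls in range. In all 12 genes shown the CycC arrays lie on 1 side of all controls, which was a condition for naming the largest rises and falls.

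Antimicrobial peptide genes were lower with CycC dsRNA without exception among those measured. These peptides are made by haemocytes and fat body after infection, under the Toll and Imd pathways, and S2 cells express some of them without infection. Of 15 genes in the list, 7 had a probe set with a single symbol on the array, and 6 of those were over the floor. All 6 fell, against 10.9% lower over all genes, with a median of -0.98 against 0.01. Each of the 6 stayed past the threshold when any 1 array was left out.

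The antifungal metchnikowin gene, Mtk, read 5.52, 4.79, 5.40 and 5.11 with CycC dsRNA and 7.38 to 7.90 (median 7.65) in controls. The highest CycC array was thus nearly 2 log2 units under the lowest control, and Mtk fell 5.36-fold (log2 -2.42 ± 0.19, adjusted p = 5.14e-09). The antibacterial diptericin gene DptB read 9.34, 9.02, 9.06 and 8.96 against 10.33 to 10.69 (median 10.64) and fell 2.8-fold (log2 -1.48 ± 0.08, adjusted p = 2.63e-11). AttD, an attacin gene, read 5.26, 4.85, 5.10 and 4.79 against 5.80 to 6.25 (median 5.97) and fell 2.01-fold. For edin, an infection-induced peptide gene, the values were 9.96, 9.86, 9.80 and 9.95 against 10.67 to 10.95 (median 10.88) (log2 -0.96 ± 0.06). The antifungal drosomycin gene Drs read 8.28, 7.95, 8.13 and 8.17 against 8.50 to 9.04 (median 8.91) (log2 -0.72 ± 0.10), and the cecropin gene CecB read 7.84, 7.87, 7.92 and 7.93 against 8.17 to 8.45 (median 8.34) (log2 -0.44 ± 0.05). None of the 6 had a CycC array inside the control range.

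The signalling genes above these peptides had smaller differences. Of 16 measured genes of the Imd pathway and peptidoglycan recognition, 6 fell and 0 rose (37.5% called, against 24.2% of all genes and 10.9% lower), with a median of -0.06. The falls numbered 3 without CycC 4, and 1 gene rose without Luc 2 or Luc 3. PGRP-LF, a membrane receptor that dampens Imd signalling, was tight within groups, at 9.13, 9.10, 9.16 and 9.14 against 9.56 to 9.78 (median 9.69), and fell by 0.55 ± 0.04. The Imd inhibitor gene pirk fell by 0.39 ± 0.08 and PGRP-LA by 0.36 ± 0.06. Fadd, the adaptor between Imd and its caspase, fell by 0.14 ± 0.04 (adjusted p = 0.0201), a call lost without CycC 2 or CycC 4 (adjusted p from 0.0837 to 0.0875). The NF-kappaB factor of the pathway, Rel, differed by -0.09 ± 0.03 (adjusted p = 0.0452), a call lost without CycC 1, CycC 2, CycC 3, CycC 4, GFP 1, GFP 2, GFP 4, Luc 2 or Luc 3 (adjusted p from 0.0606 to 0.0975). PGRP-LB (0.08 ± 0.05), imd (-0.09 ± 0.05), Dredd (-0.06 ± 0.05) and key (-0.01 ± 0.03) did not pass.

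Of 10 Toll pathway genes, 3 fell and 0 rose, with a median of -0.02, and the 30% called lay near the 24.2% of all genes. The fungal pattern receptor gene GNBP3 read 10.34, 10.43, 10.30 and 10.23 against 10.75 to 11.07 (median 10.89) and fell by 0.58 ± 0.06. The serine protease gene grass (-0.47 ± 0.06) and the receptor gene Tl (-0.43 ± 0.08) fell as well. Intracellular genes of the pathway that did not pass were Myd88 (-0.05 ± 0.04), tub (0.02 ± 0.03), pll (0.08 ± 0.06), cact (0.05 ± 0.03) and dl (0.01 ± 0.07), though a dimmer probe set of dl was lower (-0.21 ± 0.06, adjusted p = 0.00866). None of 5 JAK/STAT genes passed (1 without Luc 4), with a median of 0.09.

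Most measured genes of the melanisation cascade were lower. Of 7 measured, 5 fell, 1 rose and 1 did not pass (85.7% called, against 24.2% of all genes). Their median was -0.32, and the falls numbered 3 against the GFP controls alone. Sp7, a melanisation protease, read 10.06, 10.05, 10.15 and 10.22 against 10.48 to 10.71 (median 10.54) (log2 -0.44 ± 0.05). The prophenoloxidase gene PPO3 fell by 0.42 ± 0.06 and the serpin gene Spn77Ba by 0.32 ± 0.07. PPO1, a prophenoloxidase of crystal cells, went the other way, at 6.81, 6.88, 6.97 and 7.18 against 6.11 to 6.89 (median 6.35) (log2 0.56 ± 0.12), with CycC arrays that overlapped the controls.

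Phagocytic receptors of plasmatocytes were lower in part. Of 10 measured genes of this list, 6 fell and 0 rose (60% called, against 24.2% of all genes), with a median of -0.19. The bacterial uptake receptor gene eater read 10.20, 10.14, 10.33 and 10.32 against 10.75 to 10.92 (median 10.82) and fell by 0.59 ± 0.05. The receptor gene drpr, which acts in the clearance of dying cells, read 11.08, 11.18, 11.15 and 11.19 against 11.59 to 11.76 (median 11.67) and fell by 0.52 ± 0.04. The clotting protein gene Hml fell by 0.26 ± 0.04 and the thioester protein gene Tep4 by 0.24 ± 0.05. He (0.06 ± 0.19), NimC4 (-0.12 ± 0.11) and Sr-CI (-0.01 ± 0.09) did not pass. The GATA factor gene srp, which acts at the head of blood cell fate, differed by -0.00 ± 0.09, at 12.37, 12.43, 12.25 and 12.42 against 12.23 to 12.59 (median 12.36).

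Among 8 genes of PDGF/VEGF signalling and blood cell transcription factors 3 rose and 0 fell (37.5% called, against 24.2% of all genes). Their median was 0.11. The ligand gene Pvf1 read 11.28, 11.19, 11.24 and 11.31 against 10.67 to 10.87 (median 10.72) and rose by 0.50 ± 0.04, while its receptor gene Pvr differed by 0.07 ± 0.03. Pvf3 rose by 0.31 ± 0.08, a call lost against the Luc controls alone (adjusted p = 0.0852). The call of ush (0.17 ± 0.05) was lost without CycC 2 (adjusted p = 0.0828).

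In the basement membrane list, trol and Pxn had the largest rises. Of 13 measured genes 5 rose and 2 fell (53.8% called, against 24.2% of all genes), with a median of 0.06. Besides trol and Pxn, the lysyl hydroxylase gene Plod rose by 0.33 ± 0.05, the laminin gene LanB2 by 0.20 ± 0.04 and the integrin ligand gene Tig by 0.17 ± 0.05, a call lost without CycC 2 (adjusted p = 0.0669). Glutactin, Glt, fell by 0.35 ± 0.04 and SPARC, a collagen-binding protein gene, by 0.21 ± 0.04. The collagen IV genes Col4a1 (0.06 ± 0.04) and vkg (0.06 ± 0.03), and the laminin genes LanA (0.06 ± 0.04) and LanB1 (0.04 ± 0.03), did not pass.

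Many genes of DNA replication and mitosis rose, by less than 1.5-fold each. The 3 lists of licensing, DNA synthesis and mitosis held 66 measured genes, of which 54 rose, 0 fell and 12 did not pass (13.4% of all genes rose), with a median of 0.25 against 0.01 over all genes. In 47 of the 66 all 4 CycC arrays lay above all 8 controls, as in 7.68% of all genes. The highest was Ts at 0.56. On single arrays the median deviation of the 66 genes from the control mean was 0.24, 0.22, 0.30 and 0.26 for CycC 1 to 4. It lay between -0.07 and 0.03 on the controls, so each CycC array was above each control.

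Licensing loads the replicative helicase onto origins. Of 19 measured genes of this list 13 rose and 0 fell, with a median of 0.34. The licensing factor gene dup (Cdt1) read 11.09, 11.12, 11.14 and 11.16 against 10.56 to 10.70 (median 10.64) and rose by 0.49 ± 0.04. The origin recognition gene Orc1 rose by 0.44 ± 0.04, and the helicase genes Mcm2 by 0.40 ± 0.04 and Mcm6 by 0.39 ± 0.03. The other helicase subunit genes of the list, Mcm3 (0.35 ± 0.05), dpa (0.40 ± 0.04) and Mcm5 (0.39 ± 0.05), rose by similar amounts. The GINS subunits, which bind the helicase when it fires, did not pass, with Sld5 at 0.03 ± 0.06, Psf1 at 0.06 ± 0.05, Psf2 at 0.04 ± 0.05 and Psf3 at 0.06 ± 0.05. Neither did the kinase Cdc7 (-0.13 ± 0.07) and its activator chif (-0.01 ± 0.05).

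All 21 measured genes of DNA synthesis and nucleotide supply rose, from 0.14 for Fen1 to 0.56 for Ts, with a median of 0.32. The call of Fen1 was lost without CycC 3 (adjusted p = 0.0752), and at least 20 of the 21 passed under each alternative tried. Ts, which encodes thymidylate synthase, read 11.09, 10.88, 11.11 and 11.15 against 10.41 to 10.58 (median 10.49) (log2 0.56 ± 0.05). The deoxynucleoside kinase gene dnk read 12.85, 12.79, 12.82 and 12.83 against 12.29 to 12.40 (median 12.35) and rose by 0.48 ± 0.03. RnrL, the large subunit gene of ribonucleotide reductase, read 12.82, 12.76, 12.90 and 12.86 against 12.29 to 12.43 (median 12.40) and rose by 0.45 ± 0.03. These nucleotide supply genes were the highest of the list. The sliding clamp gene PCNA rose by 0.36 ± 0.04 and the polymerase alpha gene PolA1 by 0.37 ± 0.06.

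Of 26 cyclin, cyclin kinase and mitosis genes 20 rose and 0 fell, with a median of 0.22. CycE, the cyclin of S phase entry, read 10.21, 10.13, 9.97 and 10.15 against 9.40 to 9.72 (median 9.61) and rose by 0.52 ± 0.09, and its kinase gene Cdk2 by 0.39 ± 0.05. The mitotic cyclin genes CycB (0.34 ± 0.04) and CycB3 (0.28 ± 0.03), the spindle midzone gene feo (0.40 ± 0.04) and the kinesin gene ncd (0.30 ± 0.03) rose too. The G1 partners Cdk4 (-0.02 ± 0.04) and CycD (0.04 ± 0.04) did not pass. Of 8 genes of the E2F and Rb family 2 rose and 0 fell, and the 25% called lay near the 24.2% of all genes. The rises were in the E2F partner gene Dp (0.21 ± 0.03) and in Rbf (0.28 ± 0.06). The repressor gene E2f2 differed by -0.08 ± 0.04.

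**Figure D3:**
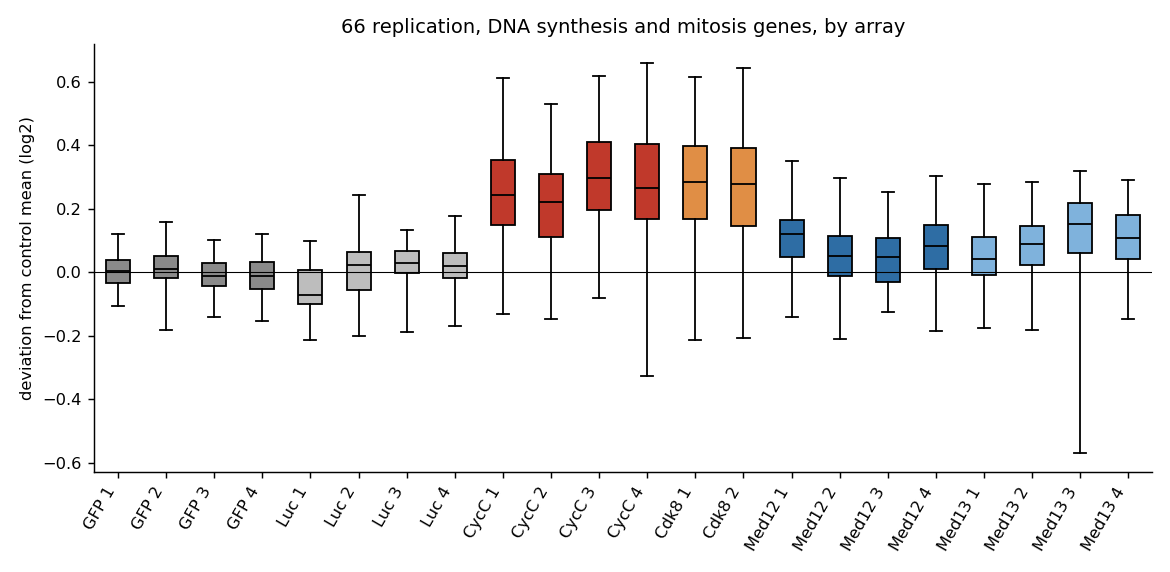
Each box shows, for 1 of the 22 arrays, how the 66 genes of the replication, DNA synthesis and mitosis lists deviate from their control mean in log2 units, with the line at the median, the box over the middle of the genes and whiskers over their whole range. The CycC medians lie between 0.22 and 0.30 and the control medians between -0.07 and 0.03.

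Glutathione and xenobiotic genes fell more often than they rose. Of 28 measured 14 fell, 3 rose and 11 did not pass (60.7% called, against 24.2% of all genes), with a median of -0.15. GstE2, a glutathione transferase gene, read 11.08, 11.02, 11.08 and 11.05 against 11.80 to 12.002 (median 11.83) and fell by 0.80 ± 0.04 (adjusted p = 9.32e-12). GstE3 fell by 0.65 ± 0.09, GstO3 by 0.52 ± 0.05 and the P450 gene Cyp4e2 by 0.69 ± 0.07. The 4 CycC arrays of GstE2 were nearly level and lay below every control. Cyp4ac1, described above, GstD5 (0.37 ± 0.07) and GstS1 rose, and GstS1 was near the floor, at 3.75, 4.07, 4.67 and 3.71, with all 8 controls below it.

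Central metabolism showed single genes and no common direction. Trehalase, Treh, which splits the main blood sugar of insects, read 7.38, 7.14, 7.32 and 6.98 against 7.66 to 8.05 (median 7.89) and fell by 0.67 ± 0.07. The gluconeogenic gene Pepck1 fell by 0.32 ± 0.08 and the glycogen branching gene AGBE rose by 0.23 ± 0.06. They were among 9 genes of which 2 rose (1 without CycC 3) and 3 fell (55.6% called, against 24.2% of all genes). Of 9 glycolysis genes 2 rose and 1 fell (33.3% called), the fall being the hexokinase gene Hex-A, by 0.31 ± 0.06. Of 11 genes of the SREBP pathway, 1 rose and 1 fell (18.2% called), with a median of -0.06. The falls numbered 2 without CycC 3, GFP 3 or Luc 2 and 3 without Luc 1. SREBP itself differed by 0.01 ± 0.05 and the acetyl-CoA carboxylase gene ACC by 0.10 ± 0.07, neither past the threshold. This pathway is a known target of Cdk8 in flies, in which the kinase lowers the SREBP protein.

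Signalling lists held changes in both directions. The phosphodiesterase gene dnc, which degrades cyclic AMP, read 6.88, 6.97, 7.18 and 6.91 against 7.52 to 8.08 (median 7.80) and fell by 0.79 ± 0.09. The EGF receptor antagonist gene aos read 8.33, 8.26, 8.38 and 8.38 against 8.88 to 9.20 (median 9.01) and fell by 0.69 ± 0.07, while the FGF ligand gene pyr read 9.89, 9.86, 9.86 and 9.97 against 9.11 to 9.46 (median 9.32) and rose by 0.59 ± 0.07. The CycC arrays of aos lay below all controls and those of pyr above them. Of 12 genes of these pathways 1 rose and 3 fell (33.3% called, against 24.2% of all genes), with a median of -0.11. Of 11 TGF-beta and BMP genes 3 rose and 1 fell (36.4% called, against 24.2% of all genes). The activin ligand gene daw fell by 0.53 ± 0.11. The receptor genes put (0.20 ± 0.04) and tkv (0.14 ± 0.04) and the inhibitory Smad gene Dad (0.26 ± 0.09) rose. The call of tkv was lost without CycC 4 or GFP 2 (adjusted p from 0.0512 to 0.136) and that of Dad without CycC 1, CycC 3, GFP 1, GFP 2, GFP 4 or Luc 1 (adjusted p from 0.0511 to 0.228). In the JNK pathway the phosphatase gene puc fell by 0.23 ± 0.05 and the adaptor gene Traf4 rose by 0.15 ± 0.03.

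None of the 6 measured Wnt genes, out of 21 in the list, passed (1 without CycC 4), with a median of 0.10. The module is a known cofactor of that pathway in flies, and whether its role there changed was not tested. Of 9 Notch genes 1 rose (11.1% called, against 24.2% of all genes), O-fut1, by 0.18 ± 0.04. Among 11 ecdysone genes 2 rose and 0 fell (18.2% called). The receptor genes EcR (0.02 ± 0.10) and usp (-0.02 ± 0.03) did not pass, and rig, a coactivator of ecdysone signalling, rose by 0.22 ± 0.04.

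Among chromatin and Mediator genes the called members of the chromatin lists rose, by small amounts. Of 23 measured core Mediator genes 3 rose and 1 fell (17.4% called, against 24.2% of all genes), with a median of 0.02. Without Luc 2, 5 rose, and without CycC 2 none fell. MED1 read 8.53, 8.47, 8.55 and 8.41 against 8.00 to 8.26 (median 8.17) and rose by 0.35 ± 0.05, and MED15 rose by 0.15 ± 0.04. Among 9 genes of the other transcription kinases 1 rose (11.1% called), the TFIIH helicase gene hay, by 0.17 ± 0.04. The kinase genes Cdk9 (0.02 ± 0.04) and Cdk12 (0.04 ± 0.05) did not pass. Of 13 measured genes of the homeotic and Polycomb list 5 rose and 0 fell (38.5% called, against 24.2% of all genes). Psc rose by 0.39 ± 0.07, Caf1-55 by 0.32 ± 0.03, Sfmbt by 0.28 ± 0.04 and esc by 0.25 ± 0.05. The trithorax list gave 7 rises and 0 falls of 16 (43.8% called), and the rises numbered 4, 2 and 3 without CycC 2, CycC 3 and CycC 4. Among them were trx at 0.26 ± 0.06 and the remodeller subunit gene mor at 0.20 ± 0.04.

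Genes of protein synthesis and turnover stayed close to control in their medians. Of 35 measured cytosolic ribosomal protein genes 1 rose (2.86% called, against 24.2% of all genes), RpS19b, by 0.46 ± 0.07. Their median was -0.01. The medians of 69 mitochondrial ribosomal protein genes and 25 proteasome genes were -0.01 and 0.01. Of 13 RNA interference genes, which process the dsRNA itself, 3 rose, or 1 without CycC 3 or CycC 4, and 1 fell, vig, by 0.13 ± 0.04 (adjusted p = 0.0391), a call lost without CycC 1, CycC 2, CycC 3, CycC 4, GFP 2, GFP 3, GFP 4, Luc 2 or Luc 4 (adjusted p from 0.0529 to 0.0974). The 30.8% called lay near the 24.2% of all genes. Hen1, the methyltransferase of small RNAs, rose by 0.22 ± 0.04, and Dcr-2 (0.06 ± 0.04) did not pass. The small heat shock protein gene Hsp27 rose by 0.51 ± 0.05 and the apoptosome gene Dark by 0.42 ± 0.05. The gene ena, which encodes an actin filament elongation factor, fell by 0.45 ± 0.06, and the innexin gap junction gene Inx3 by 0.42 ± 0.07.

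**Figure D4:**
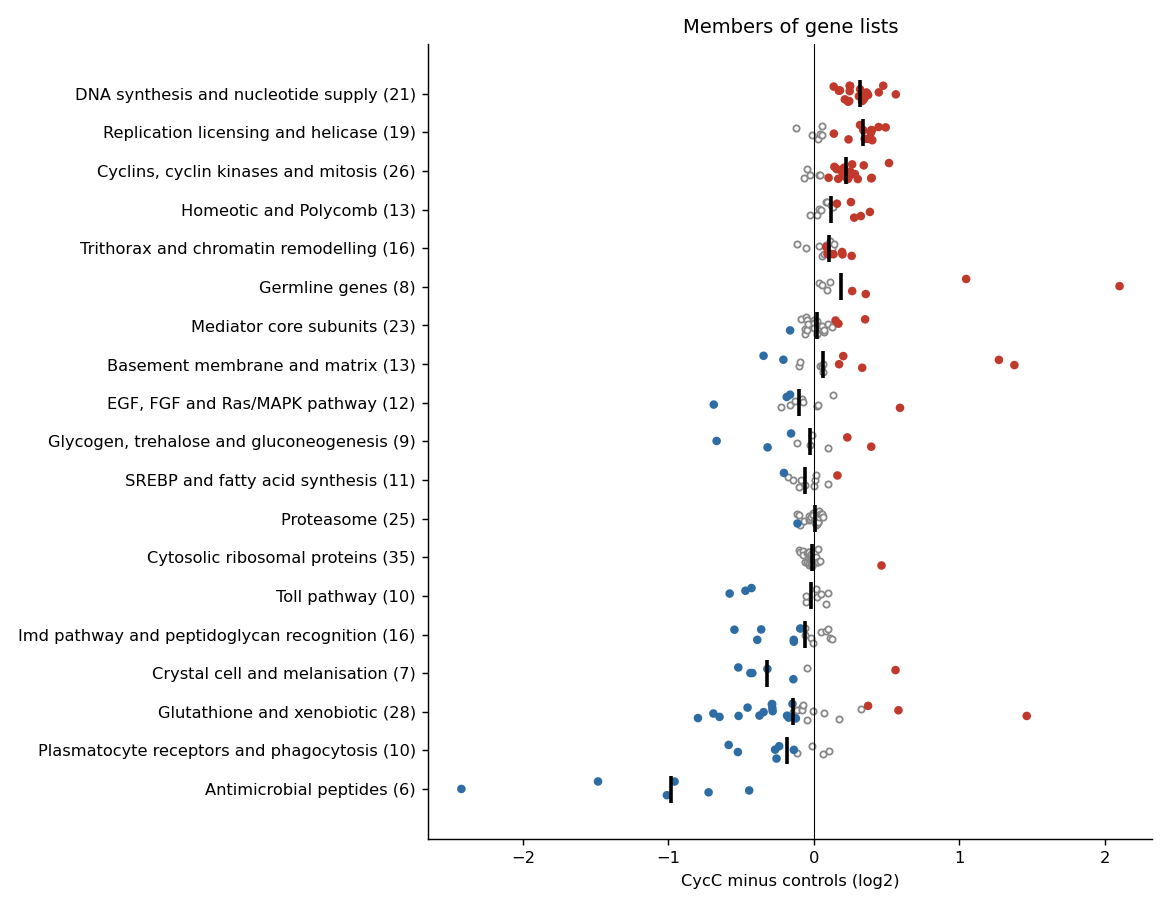
Each row is a gene list with its number of measured genes, each point a gene at its CycC minus control difference in log2 units, filled red if it rose, filled blue if it fell and open if it did not pass, with a bar at the list's median. The DNA synthesis row has all 21 points above 0 and the antimicrobial peptide row all 6 below 0.

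Set directly against Cdk8 dsRNA, which had 2 arrays, Cyclin C dsRNA gave few calls. Of 5961 genes, 290 had an unadjusted p below 0.05, where chance gives about 298. The threshold was passed by 6 (0.101%), 2 higher (0.0336%) and 4 lower (0.0671%). The count was 3 without CycC 1 or CycC 2, and 8 without Cdk8 2. CycC and Cdk8, each low under its own dsRNA, made up 2 of the 6. For 1413 of the 1445 genes called against controls, the 95% interval of the CycC minus Cdk8 difference lay within 1.5-fold in either direction, with a median distance of 0.14 from its centre to either bound. That margin is wider than most of these changes, since 99 of the 1445 genes had changed by 1.5-fold or more against controls. The count over all 1445 therefore says little about likeness to Cdk8 dsRNA. Among those 99 genes the interval lay within the margin for 81.

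The 4 other genes were eEF1gamma, dnc, CG10359 and CG9164. eEF1gamma, which encodes a subunit of translation elongation factor 1, read 14.35, 14.37, 14.40 and 14.33 on the CycC arrays, 14.82 and 14.85 on the Cdk8 arrays and 14.78 to 14.87 (median 14.81) on the controls. The CycC arrays lay below those of the 5 other groups, with means of 14.80 and 14.80 under Med12 and Med13 dsRNA, and the difference from Cdk8 was -0.47 ± 0.03 (adjusted p = 3.12e-08). The Cdk8 arrays of dnc, at 7.73 and 7.55, lay above all 4 CycC arrays (difference -0.65 ± 0.13, adjusted p = 0.0491). CG10359 fell in both, to 5.45, 5.40, 5.27 and 5.18 with CycC dsRNA and further to 4.67 and 4.88 with Cdk8 dsRNA (0.55 ± 0.09, adjusted p = 0.0122). CG9164 was below the floor on all 4 CycC arrays and read 4.09 and 4.70 with Cdk8 dsRNA, at least 1.31-fold higher there (fitted difference -0.85 ± 0.16, adjusted p = 0.0415). The call of eEF1gamma held when any 1 array was left out. The call of dnc was lost under a replicate block (adjusted p = 0.0657). With 1 Cdk8 array left out, the lone array was assumed to vary like the other groups. The call of dnc was lost without Cdk8 1, Cdk8 2, CycC 1, CycC 2 or CycC 4 (adjusted p from 0.129 to 0.534), that of CG10359 without Cdk8 1, CycC 1 or CycC 2 (adjusted p from 0.0555 to 0.335), and that of CG9164 without Cdk8 2, CycC 1, CycC 2 or CycC 3 (adjusted p from 0.086 to 0.804).

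The other genes that led the comparison with controls did not pass here. The interval of the CycC minus Cdk8 difference ran from -0.26 to 0.22 for DptB, from -0.09 to 0.12 for dup and from -0.10 to 0.11 for PCNA. It was wider for dim genes, from -0.62 to 0.49 for Mtk and from -0.90 to 0.07 for Argk1. For bam it ran from -0.74 to -0.07 and for Drs from 0.03 to 0.63. For edin it ran from 0.003 to 0.37 and for GstE2 from 0.02 to 0.25. These intervals were clear of 0 while the adjusted p did not pass. None of the 66 replication and mitosis genes passed, and the median deviation of those genes was 0.28 on both Cdk8 arrays.

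Set against the mean of Med12 and Med13 dsRNA (8 arrays), Cyclin C dsRNA differed in 2674 genes (44.9%), 1159 higher (19.4%) and 1515 lower (25.4%). The lean to lower was absent with arrays centred on their median (1393 higher, 1361 lower) and after quantile normalization (1377 and 1380). The difference was 1.5-fold or more in 257 genes and 2-fold or more in 97.

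Among called genes without overlap between the CycC and the Med12 and Med13 arrays, the 5 furthest above were TwdlE, Argk1, sn, He and NimC4. TwdlE, a cuticle protein gene, stood at 7.94, 7.74, 8.02 and 8.37 with CycC dsRNA and below the floor on all 8 Med12 and Med13 arrays, at least 16.2-fold lower (fitted difference 4.48 ± 0.13). Against controls (6.72 to 7.74, median 7.35) TwdlE rose by 0.71 ± 0.13, with overlap between the groups. Argk1 was also below the floor on those 8 arrays, at least 6.77-fold lower than with CycC dsRNA (fitted 3.43 ± 0.16). The fascin gene sn, whose product bundles actin filaments, read 9.08, 8.92, 9.25 and 9.30 with CycC dsRNA against means of 5.59 and 6.27 (difference 3.20 ± 0.15), and rose against controls by 0.65 ± 0.15. The haemocyte genes He (2.81 ± 0.19) and NimC4 (2.57 ± 0.11) were higher than in Med12 and Med13 arrays while neither passed against controls.

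In the other direction, CG33462 stood at means of 8.65 and 9.08 with Med12 and Med13 dsRNA, far above the CycC arrays (difference -3.23 ± 0.11). CG30148 (-2.43 ± 0.09) and ogre, an innexin gene (-2.12 ± 0.12), were lower with CycC dsRNA than with Med12 and Med13 dsRNA and did not pass against controls (-0.02 ± 0.09 and -0.20 ± 0.12). CG5001 was lower in both comparisons, with differences of -2.30 ± 0.14 and -0.78 ± 0.14, with 3 of 4 CycC arrays below the floor.

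The immune genes were divided in this contrast. DptB (-1.76 ± 0.08) and edin (-0.88 ± 0.06) were lower with CycC dsRNA than with Med12 and Med13 dsRNA, Mtk was higher (0.51 ± 0.19, adjusted p = 0.0331) and AttD (-0.04 ± 0.10), Drs (-0.04 ± 0.10) and CecB (-0.01 ± 0.05) did not pass. The call of Mtk was lost without CycC 1, CycC 3, CycC 4, Med12 3 or Med13 3 (adjusted p from 0.0507 to 0.125). Of 16 Imd and peptidoglycan recognition genes 10 were lower and 1 higher, against 25.4% and 19.4% of all genes. PGRP-LF differed by -0.93 ± 0.04 and PGRP-LA by -0.75 ± 0.06. GNBP3 (-1.13 ± 0.06), Sp7 (-1.12 ± 0.05) and GstE2 (-1.41 ± 0.04) were lower as well, beside differences from controls of -0.58, -0.44 and -0.80. PPO1 (1.06 ± 0.12), Pvf1 (0.83 ± 0.04) and Pxn (2.36 ± 0.07) were higher, and so was eater (0.39 ± 0.05), which had fallen against controls.

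Of the 66 replication and mitosis genes, 48 were higher with CycC dsRNA than with Med12 and Med13 dsRNA and 0 were lower (1 without Med12 3), against 19.4% higher and 25.4% lower over all genes. The median deviation of those genes from controls lay between 0.05 and 0.12 on the Med12 arrays and between 0.04 and 0.15 on the Med13 arrays, under every CycC array. For dup the difference was 0.46 ± 0.04, for CycE 0.61 ± 0.09 and for Ts 0.42 ± 0.05. Of 17 endoplasmic reticulum and unfolded protein response genes, 13 were higher with CycC dsRNA and 2 lower. Against controls 5 of the 17 rose and 0 fell with CycC dsRNA (29.4% called, near the 24.2% of all genes). With Med12 dsRNA 2 rose and 11 fell, against 1577 and 922 of all 5961 genes. With Med13 dsRNA 1 rose and 7 fell, against 1249 and 669 of all 5961 genes.

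**Figure D5:**
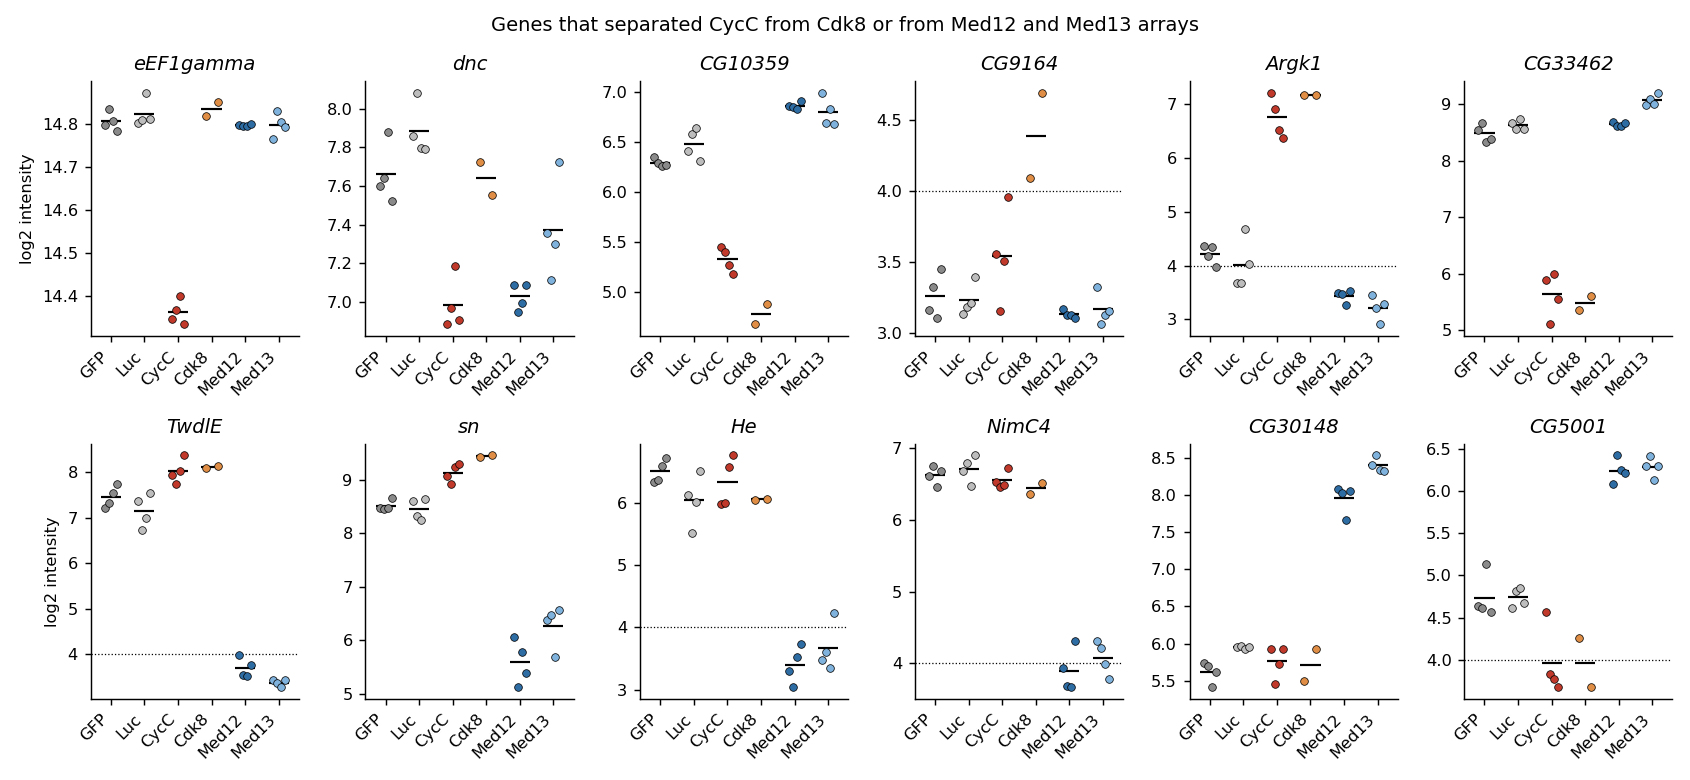
Each panel plots the log2 intensity of 1 gene on all 22 arrays by group, with points for arrays, lines for group means and a dotted line at the floor of 4 where it falls in range. CycC arrays stand apart from Cdk8 arrays in eEF1gamma, dnc, CG10359 and CG9164, and from Med12 and Med13 arrays in the other genes. For those other genes a lack of overlap with Med12 and Med13 arrays was a condition of their choice.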

How the data were processed

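Messenger RNA was measured on Affymetrix Drosophila arrays. The authors deposited 1 intensity per probe set and array on a linear scale, made with GCRMA per the submitters' processing notes, a method that corrects background by probe sequence, normalizes arrays to one another and summarises probes. The sources used here do not name its version, its settings or the build behind the annotation. The log2 of each deposited intensity was taken.

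Of 18952 probe sets, 183 controls were left out and 13647 had a single symbol in the platform annotation (402 had several, 4720 were unnamed, and all those were left out). By gene identifier 13544 matched current names, which changed 0. Sets with log2 4 (intensity 16) or more on at least 2 arrays were kept, and the set with the highest mean stood for each of 329 genes with several, which left 5961 genes. With no detection calls, a group wholly below the floor gives only a bound, for which its arrays were set to 4.

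All 22 arrays entered 1 limma fit (limma 3.58.1, R 4.3.3) with a mean for each group, 16 residual degrees of freedom and eBayes. CycC was set against the average of both control means, against Cdk8 and against the average of Med12 and Med13. Tests were two-sided with Benjamini-Hochberg adjustment over 5961 genes at 0.05. The median moderated SD was 0.0793, and precision is limited by how many arrays there were. The fit was tested on simulated data.

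The members and gene lists were chosen with earlier results of these data known. Named genes were the module genes, the 15 largest rises and falls without overlap, and the calls against Cdk8 and between controls. To these came the 5 largest each way without overlap against Med12 and Med13, and per list the 4 with the smallest p. Genes named beyond these were chosen after their values were seen. Alternatives covered the floor, offset, scaling, probe sets, eBayes options, the arrays fitted, a replicate block, the control group and each array left out.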

Additional observations from a re-analysis of the deposited data

Results flagged for a closer look

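Single arrays stood away from the rest of their group in 20 of 360 groups examined (the 4 CycC arrays and the 8 controls of each named gene), by the gap to the nearest array as a share of the group's range, where chance gives about 1 in 20. The log2 intensity of the CycC transcript was 4.83 on CycC 3, with the nearest array at 4.25. On CycC 1, CG5080 was low at 6.80 and PolA1 low at 8.83, while Hml was high at 12.59 and grass high at 9.71. Pvf3 was high on CycC 2 at 7.26. Among controls, Luc 1 was high for CG10939 at 5.09 and low for RnrL at 12.29, rig at 9.71 and Dad at 4.51. Luc 2 was high for AGO3 at 4.78 and vkg at 15.36 and low for RpS19b at 7.34. Luc 3 was high for GstE2 at 12.002, and Luc 4 for CG14857 at 4.92, GstS1 at 3.84 and Sp7 at 10.71. On the GFP arrays, pirk was high at 7.29 (GFP 1), imd at 8.37 (GFP 2) and Cdk12 at 9.12 (GFP 4). In all of these genes but Cdk12, imd, AGO3 and vkg, the gene passed the threshold against controls.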

How the results depend on the processing

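The count of 1445 genes against controls ran from 1064 to 1549 over 12 alternatives in processing, and from 1141 (without CycC 3) to 1510 (without Luc 2) when 1 array was left out. The CycC transcript differed by -4.96 to -4.76 on the log2 scale when 1 array was left out. The contrast with Cdk8 gave 3 genes with only its own groups in the fit, and 3 to 8 when 1 array was left out. The contrast with Med12 and Med13 gave 2324 to 2645 genes when 1 array was left out. The GFP and Luc arrays differed in 4 genes with arrays centred on their median, 4 after quantile normalization, and 2 to 10 when 1 array was left out. Of 135 named genes past the threshold, 122 kept their sign and call in all alternatives run. ATPsyndelta turned from 0.13 to -0.091 (adjusted p = 0.161) against the GFP controls alone, and the cause was not tested. The labels do not say whether replicate numbers mark a shared batch, and the arrays were treated as unpaired. Deviations correlated over 0.1 in 8 of 12 same-numbered pairs (from -0.05 to 0.44). The same number gave the highest correlation in 6 of the 12, so whether the numbers pair the arrays was not settled. With the replicate number as a block 1549 genes passed against controls, 1415 of them shared with the 1445, 9 passed against Cdk8, 2771 against Med12 and Med13, and 5 differed between GFP and Luc. Rel was lost under the block (adjusted p = 0.0524), and dnc against Cdk8 (0.0657). Weak signals near the floor limit the precision of dim genes.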

Other observations

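Further gene families, some with members in the lists above, were chosen after their values were seen, so their counts support nothing. Of 7 measured neprilysin-like peptidase genes, 6 fell and 0 rose, with a median of -0.48, against 10.9% lower over all genes. Neprilysins cleave small peptides outside the cell. Nepl19 read 10.85, 10.89, 10.84 and 10.77 on the CycC arrays against 11.52 to 11.76 (median 11.68) on the controls and fell by 0.83 ± 0.04, and Nepl20 fell by 0.71 ± 0.06. Nepl16 differed by 0.16 ± 0.09. Another FGF ligand gene, bnl, read 4.90, 5.16, 4.69 and 4.41 against 5.17 to 6.11 (median 5.51) and fell by 0.78 ± 0.14, while pyr rose. Both measured genes of the GNBP family, GNBP2 (-0.57 ± 0.05) and GNBP3, fell.

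Of 9 lysosomal hydrolase genes 4 fell, 1 rose and 4 did not pass, with LManII at -0.70 ± 0.05, Sgsh at -0.66 ± 0.05 and Ids at -0.56 ± 0.04. Of 12 genes that act in the replication checkpoint or in chromatin assembly at forks, 7 rose and 1 fell, with WRNexo at 0.48 ± 0.05, asf1 at 0.42 ± 0.04, Rif1 at 0.42 ± 0.05 and Claspin at 0.40 ± 0.06. Of 8 UDP-glycosyltransferase genes 1 rose, 2 fell and 5 did not pass, with a median of -0.05.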
